A study of Mus musculus with 30 samples.

Results

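The transcriptome of livers lacking the nuclear receptor PPARα was compared with that of wild-type livers in mice kept on a ketogenic diet. The comparison used the 3 arrays titled as PPARα knockout on the ketogenic diet and the 4 arrays titled as wild type on the same diet, 7 of the 30 liver arrays of the series. Of 35556 probe sets on each array, the 21218 that carry exactly 1 gene symbol were used to name genes, and they stand for 18820 genes. Where a gene had several such probe sets, the one with the highest mean over the 30 arrays was taken, with exceptions. Genes picked by size of change are given on their most changed probe set. Genes picked because the diet and a fast gave unlike differences are given on the probe set of lowest P for that contrast. The PPARα-/- mice carried the whole-body allele of the line B6;129S4-Pparatm1Gonz/J, backcrossed for over 10 generations to C57BL/6J. The wild-type mice were C57BL/6. All 7 mice were male, about 8 weeks old, had eaten the diet F3666 for 4 days and were fed at the time of killing, around 10 a.m. Because PPARα is lost in every tissue of the knockout, differences in the liver cannot be told apart from those that follow from other organs. The other groups of the series were the same genotypes after a 16 h fast and mice lacking CREB3L3, alone or with PPARα.

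PPARα is a transcription factor that is switched on by fatty acids and binds DNA as a partner of RXR, at sites built from a pair of AGGTCA-like half-sites with 1 base between them. In liver it is known for turning on genes that take up, activate and burn fatty acids in mitochondria, peroxisomes and microsomes, and for the making of ketone bodies when carbohydrate is scarce. A ketogenic diet, nearly free of carbohydrate and rich in fat, is one of the states in which this program is most in use.

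Values are log2 intensities after robust multi-array averaging (RMA), and every difference is PPARα-/- minus wild type on that scale, with its standard error (SE). A gene is called higher or lower where limma gave an unadjusted P under 0.001 with a fold change beyond 1.2, and the adjusted p beside it controls the false discovery rate (Benjamini and Hochberg) across all 35556 probe sets. Per-liver values are given for replicates 1 to 3 of PPARα-/- and 1 to 4 of wild type. The number of arrays limits the precision. The deposited labels do not say whether littermates or cages were shared, so the p-values measure only a spread between livers. That spread was pooled over every group of the series, including the fasted livers and those lacking CREB3L3. The SEs and p-values therefore do not rest on the spread of the compared livers alone, and some calls were lost when only these livers were fitted. Array medians lay between 4.22 and 4.38 in the whole series. Pearson's r between arrays was 0.987 to 0.990 among PPARα-/- livers, 0.986 to 0.990 among wild-type livers and 0.971 to 0.979 between the groups.

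Ppara itself read 7.95, 7.69 and 7.22 in PPARα-/- livers, against 10.54, 10.54, 10.51 and 10.37 in wild-type livers (difference -2.87, SE 0.29, adjusted p = 2.2e-08). The knockout livers all lay below the wild-type livers, with a signal still above the array median. Where the probes lie relative to the disrupted stretch of the gene was not analysed here. After the fast the same probe set averaged 9.19 ± 0.21 in PPARα-/- livers and 10.2 ± 0.14 in wild-type livers (SD, n = 3 and 4), a difference of -1.04 that was not called. Creb3l3, the gene of the other factor studied in the series, read 9.95, 9.77 and 9.49 in PPARα-/- livers and 10.42 to 10.48 in wild-type livers (-0.72, SE 0.15, adjusted p = 0.00085), a call that was lost without PPARα-/- replicate 3 (-0.59). Among the wild-type livers, replicate 1 stood nearest to the knockout mean in 44.4% of the 3883 called probe sets, against 13.4%, 18.0% and 24.2% for replicates 2, 3 and 4. Without replicate 1, 3691 probe sets were called, 3441 of them shared with the full comparison in the same direction.

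Loss of PPARα changed a large part of the liver transcriptome on this diet. Across genes, 1213 were higher in PPARα-/- livers (6.45% of 18820) and 1345 were lower (7.15%), and the 7 arrays did not overlap between groups in 98.5% of the genes called, against 29.5% of all genes. Each count of list members given below is to be read beside the 6.45% higher and 7.15% lower of all genes. The decreases were the steeper changes. More than a 2-fold change was found in 526 genes that were lower and 277 that were higher, more than 4-fold in 122 and 53, and more than 8-fold in 39 and 11. The median difference over all genes was -0.01. Over all 35556 probe sets, 2174 were higher (6.11%) and 1709 lower (4.81%), 10.9% together.

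Among called genes whose groups did not overlap, the steepest decreases were in Vnn1, Cyp4a14 and Car3. Vnn1, a pantetheinase that releases the building block of coenzyme A, read 4.12, 3.82 and 3.70 in PPARα-/- livers, against 10.71, 11.11, 10.70 and 10.67 in wild-type livers. Its difference of -6.92 (SE 0.36, adjusted p = 6.1e-13) was the largest of any gene. Cyp4a14, a microsomal fatty acid omega-hydroxylase, read 7.35, 5.51 and 4.82 in PPARα-/- livers and 12.36 to 12.74 in wild-type livers (-6.67, SE 0.50, adjusted p = 1.9e-10). The lack of overlap in these genes follows from how they were picked, and in Cyp4a14 the knockout livers were spread over more than 2 log2 units.

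Car3, a cytosolic carbonic anhydrase abundant in lipid-storing cells, read 7.64, 7.38 and 5.76 in PPARα-/- livers, against 12.62, 12.57, 13.14 and 13.10 in wild-type livers (-5.93, SE 0.57). Ces3a, a lipid-hydrolysing carboxylesterase, read 7.36, 6.93 and 6.58 in PPARα-/- livers and 11.83 to 12.19 in wild-type livers (-5.09, SE 0.49). Inmt, an indolethylamine methyltransferase, differed by -4.99 (SE 0.49). These 3 genes had adjusted p-values of 1.2e-08, 1.2e-08 and 1.6e-08. Abcd2, a peroxisomal transporter of very long-chain fatty acyl-CoA, read 4.95, 4.22 and 4.28 in PPARα-/- livers, close to the median of the whole array, and 9.18 to 9.51 in wild-type livers (-4.90, SE 0.31). Serinc2 differed by -4.89 (SE 0.19), Dio1, the deiodinase that converts thyroxine, by -4.65 (SE 0.43) and Sult2a8, a hepatic sulfotransferase, by -4.55 (SE 0.53). The list of the 15 steepest decreases was completed by Fabp1, Acaa1b, a peroxisomal thiolase, by Mfsd2a, a lysophosphatidylcholine transporter (-4.53), Fitm1, a protein of lipid droplet formation (-4.34), Gm4952 (-4.24) and Cyp4a31 (-4.24). Of 21 genes gathered as steeply PPARα-dependent in earlier reports, 17 were lower and none higher (median -1.40), beside 7.15% lower over all genes. The 21 were chosen for falling without PPARα, with earlier results of these data known, so the count is no independent test. The genes lower included Vnn1, Serinc2, Retsat, a retinol saturase (-3.44, SE 0.23), and Chrna2, an acetylcholine receptor subunit (-3.41).

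**Figure D1:**
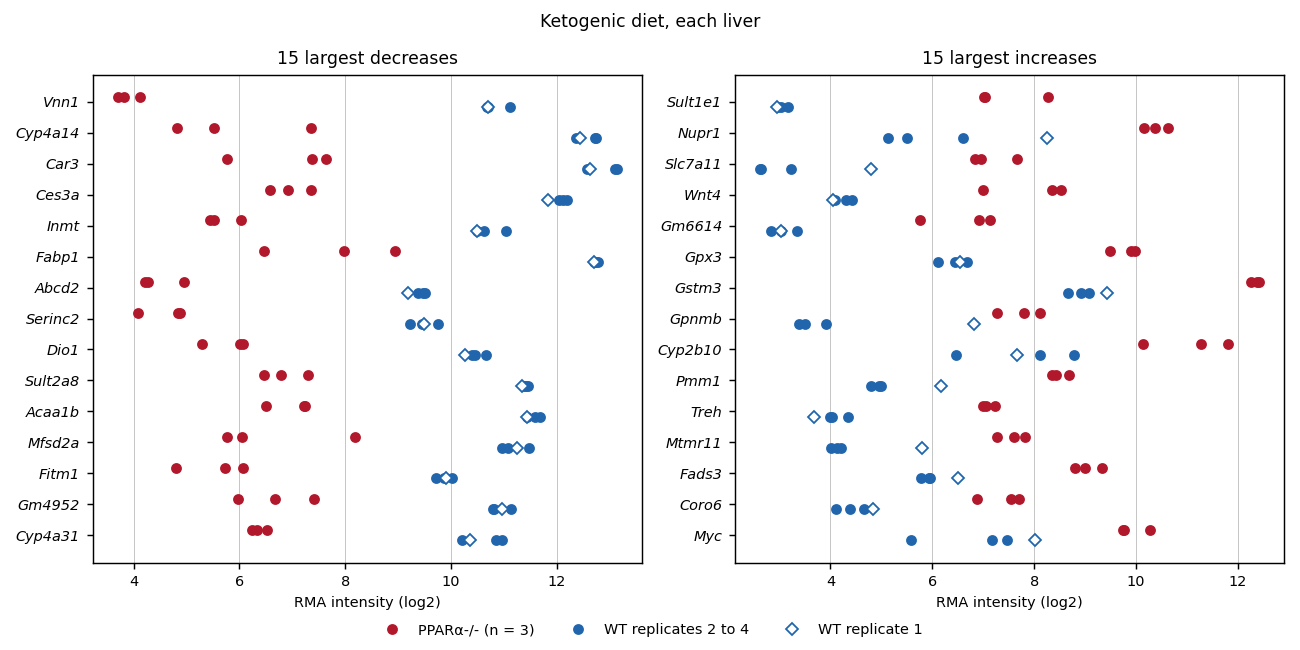
RMA intensity on a log2 axis in each liver for the 15 genes with the largest decrease (left) and the 15 with the largest increase (right). Red points are the 3 PPARα-/- livers, drawn above the blue points of the wild-type livers, with wild-type replicate 1 as an open diamond. The 30 genes were picked only among called genes whose groups do not overlap. Replicate 1 lies well above the other wild-type livers in Nupr1 (8.26), Slc7a11 (4.79), Gpnmb (6.82), Pmm1 (6.17) and Mtmr11 (5.80).

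Fabp1, the liver fatty acid-binding protein that carries fatty acids through the cytosol, read 8.94, 7.98 and 6.46 in PPARα-/- livers, against 12.70, 12.75, 12.71 and 12.78 in wild-type livers (-4.94, SE 0.41, adjusted p = 8.1e-10). The wild-type livers were almost identical and the knockout livers differed widely from one another. Its promoter is shown because it holds a match to the direct repeat that PPARα with RXR is known to bind. The letters searched were a pair of AGGNCA half-sites in the same direction with 1 base of any kind between them, on both strands, in RefSeq windows of 250 bases before to 50 bases after each gene start (GRCm38.p6). A match was present in 122 of 27025 genes with a window (0.451%), in 8 of 1071 genes lower in PPARα-/- livers (0.747%), in 3 of 981 genes higher (0.306%) and in 49 of 12697 genes not called (0.386%). Of 231 genes lower on both the diet and a fast, 1 had a match (0.433%). The stricter form with AGGTCA at both sites was present in 13 genes in all, in 0 of the 1071 lower and in 1 of the 981 higher. Of the 150 named genes that were lower and not on the chromosome left out, 116 had a window and Fabp1 alone had a match. In the window at chr6:71199629-71199928, on the plus strand and printed 5′ to 3′, the match is in capitals. It lies on the opposite strand, from -67 to -55 relative to the start site, and is a description of the letters, not a bound site.
Fabp1: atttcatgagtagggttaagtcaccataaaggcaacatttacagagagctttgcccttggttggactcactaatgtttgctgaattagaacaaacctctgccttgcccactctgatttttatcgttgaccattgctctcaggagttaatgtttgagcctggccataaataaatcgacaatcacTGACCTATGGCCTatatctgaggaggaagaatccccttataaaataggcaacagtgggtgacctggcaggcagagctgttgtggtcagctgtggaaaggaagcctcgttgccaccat

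Nearly every measured step of mitochondrial fatty acid oxidation was lower in PPARα-/- livers. Of 18 genes measured, 17 were lower and none was higher, with a median of -1.33, beside 7.15% lower and a median of -0.01 over all genes. Cpt2, the inner-membrane carnitine palmitoyltransferase, read 8.29, 8.43 and 8.21 in PPARα-/- livers and 10.13, 10.39, 10.21 and 10.27 in wild-type livers (-1.94, SE 0.10, adjusted p = 6.5e-13). Eci2, an enoyl-CoA isomerase, differed by -1.87 (SE 0.11), Etfdh, which hands electrons from acyl-CoA dehydrogenases to the respiratory chain, by -1.75 (SE 0.12) and Acads, the short-chain acyl-CoA dehydrogenase, by -1.47 (SE 0.10). Cpt1a, the carnitine palmitoyltransferase that admits fatty acids to mitochondria, fell less steeply and read 11.10, 11.03 and 10.90 in PPARα-/- livers, against 11.70, 11.73, 11.60 and 11.60 in wild-type livers (-0.64, SE 0.09, adjusted p = 2.9e-06). The member that was not lower was Acot2, a mitochondrial acyl-CoA thioesterase, named after its value was seen. It read 12.01, 12.32 and 12.30 in PPARα-/- livers and 10.98 to 11.64 in wild-type livers (0.96, SE 0.27, adjusted p = 0.014), did not pass the call in the full comparison and has close homologues in the Acot family. Without wild-type replicate 2, 1 member of the list was called higher.

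Peroxisomal oxidation followed the same direction with a few steeper members. Of 22 genes, 16 were lower, 1 was higher and the median was -1.32. Acaa1b read 7.25, 7.22 and 6.51 in PPARα-/- livers and 11.43 to 11.68 in wild-type livers (-4.54, SE 0.23). Ehhadh, the bifunctional enzyme of the peroxisomal spiral, read 9.01, 9.06 and 9.04 in PPARα-/- livers, against 11.74, 12.16, 11.64 and 11.88 in wild-type livers (-2.82, SE 0.16, adjusted p = 2.9e-12). Decr2, a dienoyl-CoA reductase, differed by -2.53 (SE 0.12) and Hsd17b4, the D-bifunctional enzyme, by -1.50 (SE 0.09). The member called higher was Acot5, a peroxisomal thioesterase at low intensity (3.97 to 4.30 in PPARα-/- livers, 2.47 to 2.85 in wild-type livers), also named after its value was seen. Among peroxisome biogenesis genes 6 of 13 were lower and none was higher, with Pex11a, a factor of peroxisome division, at -0.98 (SE 0.19), Pex6 at -0.91, Pex16 at -0.81 and Pex19 at -0.57. Pex16 was not called when only the 15 ketogenic arrays were fitted.

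Microsomal omega-oxidation, the side route that starts at the methyl end of a fatty acid, had 7 of 8 genes lower and a median of -2.40. Besides Cyp4a14 and Cyp4a31 (-4.24, SE 0.34), Cyp4a12a differed by -3.25 (SE 0.38) and Aldh3a2, the fatty aldehyde dehydrogenase, by -1.52 (SE 0.18). The Cyp4a genes are near-identical neighbours, so how the signal is divided among them is uncertain. Ketone body genes were less uniform. Of 7 measured, 2 were lower: Bdh1, which makes β-hydroxybutyrate, read 8.96, 9.27 and 7.71 in PPARα-/- livers and 11.04 to 11.44 in wild-type livers (-2.57, SE 0.33, adjusted p = 1.2e-06), and Acat1, the mitochondrial thiolase, differed by -1.38 (SE 0.09). Slc16a6, a transporter through which ketone bodies leave the hepatocyte, was higher at 7.81, 7.45 and 7.46 in PPARα-/- livers and 6.09 to 6.90 in wild-type livers (1.05, SE 0.28, adjusted p = 0.0081), but the call was lost without any 1 of 6 of the 7 livers, with values of 0.91 to 1.18 over the 7 omissions.

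**Figure D2:**
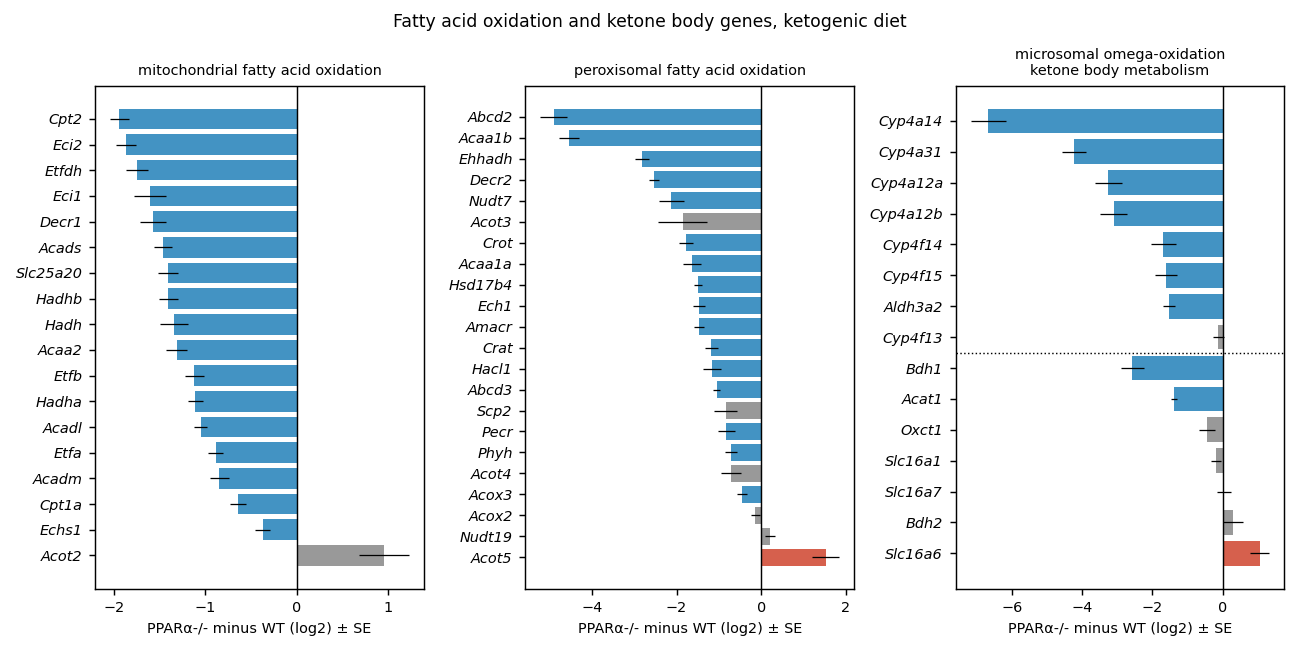
Difference between PPARα-/- and wild-type livers (log2, bars with SE) for each measured gene of mitochondrial and peroxisomal fatty acid oxidation, microsomal omega-oxidation and, under the dotted line, ketone body metabolism. Blue bars were called lower, red bars higher and grey bars neither. Bars point left in 17 of 18 mitochondrial genes, and the longest, Cyp4a14, reaches -6.67.

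Genes that bring fatty acids into the cell and activate them were lower in 12 of 19 cases, with none higher and a median of -1.20. Besides Fabp1, Fabp2, an intestinal-type fatty acid-binding protein, read 9.05, 8.79 and 7.65 in PPARα-/- livers and 10.54 to 11.07 in wild-type livers (-2.42, SE 0.25). Slc27a1, a fatty acid transport protein, differed by -1.77 (SE 0.17) and Acsl5, a long-chain acyl-CoA synthetase, by -1.20 (SE 0.10). Without wild-type replicate 1 or 2, 1 member was called higher. Of the genes of lipid droplets and lipolysis, 6 of 19 were lower and 1 higher. Fitm1 read 6.07, 5.72 and 4.80 in PPARα-/- livers against 9.72 to 10.01 in wild-type livers, Mgll, the monoacylglycerol lipase, differed by -1.93 (SE 0.22) and Lipe, hormone-sensitive lipase, by -1.16 (SE 0.13), although a dimmer probe set of Lipe differed by only -0.14. The member that was higher was Plin3, a droplet coat protein found in many tissues (0.70, SE 0.15), named after its value was seen. Cidec, a droplet fusion protein, read 8.48, 8.34 and 7.40 in PPARα-/- livers, overlapping the 9.75, 9.55, 8.35 and 8.25 of wild-type livers (-0.90, SE 0.44, adjusted p = 0.20). Plin5, a droplet coat protein of oxidative tissues, differed by -1.21 (SE 0.32, adjusted p = 0.0076), a call that was lost without any single liver other than wild-type replicate 1 (-1.12 to -1.31 over the 7 omissions).

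Several lists of lipid synthesis held lower genes. Fatty acid synthesis genes were lower in 6 of 16 cases and higher in none (median -0.62). Srebf1, the transcription factor that drives lipogenesis, read 5.83, 6.32 and 5.58 in PPARα-/- livers, against 8.13, 8.15, 9.49 and 8.21 in wild-type livers (-2.58, SE 0.23, adjusted p = 4.4e-09). Scd1, the stearoyl-CoA desaturase, differed by -2.48 (SE 0.33), Fasn, fatty acid synthase, by -1.50 (SE 0.26) and Acaca, acetyl-CoA carboxylase, by -0.73 (SE 0.13). Fasn was not called when only the 7 arrays were fitted. Among the 9 desaturases and elongases listed for polyunsaturated fatty acids, 6 were lower and 2 higher (median -1.43). The steepest, named after its value was seen, was Elovl3, an elongase of very long-chain fatty acids, at 6.49, 6.89 and 5.92 in PPARα-/- livers and 9.80 to 10.57 in wild-type livers (-3.85, SE 0.55). Fads2, the delta-6 desaturase, read 9.59, 10.00 and 8.19 in PPARα-/- livers and 12.00 to 12.27 in wild-type livers (-2.88, SE 0.28). Elovl5, an elongase, differed by -1.94 (SE 0.17) and Fads1, the delta-5 desaturase, by -1.40 (SE 0.16). The neighbouring family member Fads3 ran the other way, at 8.79 to 9.32 in PPARα-/- livers and 5.78 to 6.51 in wild-type livers (2.99, SE 0.23, adjusted p = 3.1e-10). The other member that was higher was Elovl1, also an elongase (0.67, SE 0.14), named after its value was seen, and without PPARα-/- replicate 2 only 1 was higher.

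Triglyceride and phospholipid synthesis had 7 of 18 genes lower and none higher, with Gpd1, glycerol-3-phosphate dehydrogenase, at -1.20 (SE 0.19), Chpt1, a cholinephosphotransferase, at -1.06, Gpat4, a glycerol-3-phosphate acyltransferase, at -0.89 and Pcyt2, of phosphatidylethanolamine synthesis, at -0.75. Without PPARα-/- replicate 2, 1 member was called higher. In cholesterol synthesis 3 of 18 genes were lower (16.7%, beside 7.15% of all genes), none higher, and the median was -0.18. Mean levels of the list varied within both groups and overlapped, at 8.13, 9.15 and 7.84 in PPARα-/- livers and 8.23 to 9.35 in wild-type livers. The clearest member of this list was Tm7sf2, a sterol reductase, at 6.31, 6.80 and 5.51 in PPARα-/- livers and 8.11 to 9.01 in wild-type livers (-2.27, SE 0.32). Lipoprotein genes were lower in 14 of 22 cases and higher in none (median -0.55). Apoc1, an apolipoprotein of triglyceride-rich particles, read 11.65, 11.55 and 11.27 in PPARα-/- livers and 12.56 to 12.79 in wild-type livers (-1.22, SE 0.15). Lrp1, a remnant receptor, differed by -1.18 (SE 0.15), Scarb1, the HDL receptor, by -0.95 (SE 0.11), Apob by -0.56 (SE 0.06) and Angptl4, an inhibitor of lipoprotein lipase, by -0.54 (SE 0.11), which was not called when only the 7 arrays were fitted. Apoa4 was level at 13.17, 13.18 and 13.03 in PPARα-/- livers and 13.12 to 13.36 in wild-type livers (-0.08, SE 0.22, adjusted p = 0.88).

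Bile acid genes included changes in both directions, with 8 of 22 lower and 3 higher. The count of lower genes was 5 without PPARα-/- replicate 3. Cyp8b1, which sets the share of cholic acid, read 8.44, 7.19 and 5.82 in PPARα-/- livers and 9.72 to 10.80 in wild-type livers (-2.93, SE 0.41), and Amacr, a racemase of side-chain oxidation, differed by -1.46 (SE 0.12). The efflux pumps Abcc4 and Abcc3 were higher, by 2.57 (SE 0.26) and 0.67 (SE 0.11). Abcc4 read 7.76, 7.78 and 7.79 in PPARα-/- livers, against 5.52, 5.35, 5.07 and 4.87 in wild-type livers. Cyp7a1, the rate-limiting enzyme of bile acid synthesis, varied within both groups, at 8.10, 8.78 and 6.34 in PPARα-/- livers and 8.95, 8.92, 8.50 and 11.29 in wild-type livers, which overlapped (-1.67, SE 0.86, adjusted p = 0.22).

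Genes of glucose metabolism were called in both directions. Pck1, phosphoenolpyruvate carboxykinase, read 12.25, 12.32 and 12.31 in PPARα-/- livers and 12.37 to 12.74 in wild-type livers (-0.26, SE 0.38, adjusted p = 0.76). G6pc, glucose-6-phosphatase, read 10.66, 11.14 and 11.26 in PPARα-/- livers and 11.74, 11.66, 11.15 and 10.83 in wild-type livers (-0.33, SE 0.43, adjusted p = 0.72). Gluconeogenesis and glycogen genes split evenly, with 3 of 17 lower and 3 higher, and without PPARα-/- replicate 3 only 1 was higher. Gys2, liver glycogen synthase, differed by -1.52 (SE 0.27), Pygl, liver glycogen phosphorylase, by -1.02 (SE 0.10), Pcx, pyruvate carboxylase, by -0.73 (SE 0.14) and Gpt2, an alanine aminotransferase, by 0.69 (SE 0.13). Pdk4, the kinase that shuts pyruvate dehydrogenase, read 8.06, 7.97 and 8.50 in PPARα-/- livers, above 7.87 and 7.86 in wild-type replicates 1 and 2 and 5.94 and 5.70 in replicates 3 and 4 (1.34, SE 0.41, adjusted p = 0.021). It was not called, and it was called without wild-type replicate 1 (1.68) or 2 (1.68). Fgf21, the hormone of fasting and ketosis, read 4.14, 5.59 and 4.30 in PPARα-/- livers, against 8.74, 8.24, 6.91 and 6.16 in wild-type livers (-2.84, SE 0.48, adjusted p = 8.6e-05), again with wild-type replicates 1 and 2 above 3 and 4. The call of Fgf21 was lost when only the 7 arrays were fitted, and that of Pcx when only the 15 ketogenic arrays were.

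**Figure D3:**
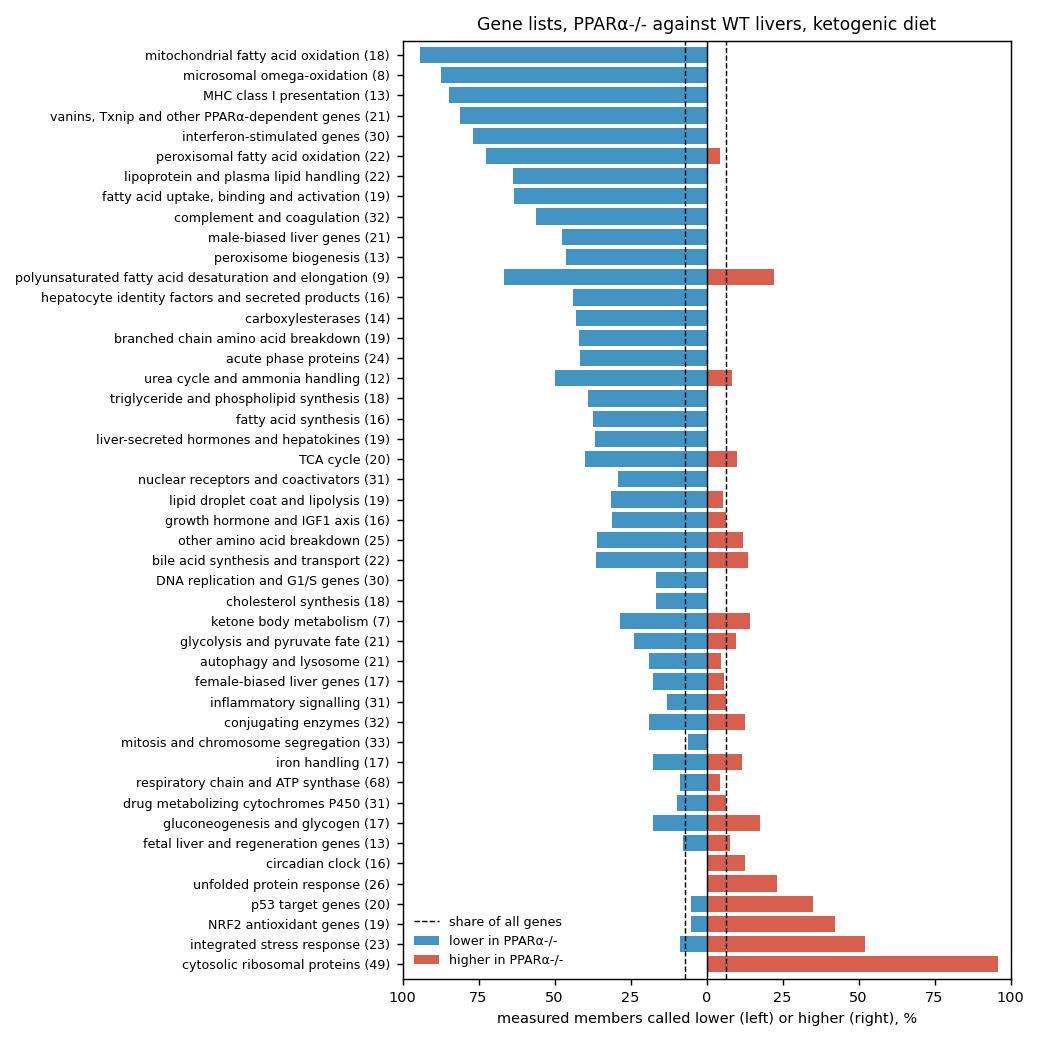
Share of the measured members of each of 46 gene lists called lower (blue, to the left) or higher (red, to the right) in PPARα-/- livers, with the number of members measured in brackets. Dashed lines mark the shares over all 18820 genes, 7.15% lower and 6.45% higher. Mitochondrial oxidation, omega-oxidation and MHC class I presentation stand at the lower end and cytosolic ribosomal proteins (95.9% higher) at the other.

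Interferon-stimulated genes, which cells switch on to resist viruses, were lower as a group. Of 30 measured, 23 were lower and none higher, with a median of -1.49. Gbp3, an interferon-inducible GTPase, read 4.56, 4.28 and 4.57 in PPARα-/- livers, against 7.21, 7.99, 7.67 and 6.49 in wild-type livers (-2.87, SE 0.34, adjusted p = 3.3e-07). Ifit3, a binder of foreign RNA complexes, read 5.19, 4.60 and 4.47 in PPARα-/- livers and 6.95 to 8.24 in wild-type livers (-2.75, SE 0.34). Iigp1, an immunity-related GTPase, differed by -2.66 (SE 0.17) and Bst2, which tethers budding viruses, by -2.03 (SE 0.21). In each of these 4 called genes every knockout liver was below every wild-type liver, but groups did not overlap in 98.5% of all genes called. The mean level of the 30 genes was 5.90 to 6.25 in PPARα-/- livers and 7.17 to 8.35 in wild-type livers, and wild-type replicate 2 was the highest. The chemokine Cxcl9, which interferon-γ induces, read 4.99, 4.64 and 4.49 in PPARα-/- livers and 7.38 to 7.97 in wild-type livers (-2.98, SE 0.40).

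Promoters of 3 of these genes are shown because they fell together and their windows hold GAAA repeated with 2 bases of any kind between, the core of the interferon-stimulated response element. This motif was chosen after the values had been seen, and the genes are the 3 steepest list members with a match. The list holds genes known to respond to interferon, so its share of matches is no independent test. A match on either strand was present in 12 of the 17 lower list members with a window (70.6%), in 1 of the 4 members not called, in 89 of 1071 genes lower in PPARα-/- livers (8.31%), in 34 of 981 genes higher (3.47%) and in 1079 of 27025 genes in all (3.99%). The lower list members are also counted among the 1071 genes. Ifit1 read 5.46, 4.06 and 4.05 in PPARα-/- livers and 6.79 to 9.18 in wild-type livers (-3.19, SE 0.53). Capitals mark the matches, which all lie on the opposite strand, and in Gbp3 a pair of matches overlap. The windows are those of RefSeq on GRCm38.p6, on the plus strand, at chr19:34640639-34640938 for Ifit1, chr3:142559794-142560093 for Gbp3 and chr19:34583279-34583578 for Ifit3.
Ifit1: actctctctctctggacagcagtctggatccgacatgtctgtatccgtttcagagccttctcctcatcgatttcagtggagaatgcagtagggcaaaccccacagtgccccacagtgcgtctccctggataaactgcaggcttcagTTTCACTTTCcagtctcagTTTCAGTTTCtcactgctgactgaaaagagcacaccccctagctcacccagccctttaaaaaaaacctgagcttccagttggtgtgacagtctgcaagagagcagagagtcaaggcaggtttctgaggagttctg
Gbp3: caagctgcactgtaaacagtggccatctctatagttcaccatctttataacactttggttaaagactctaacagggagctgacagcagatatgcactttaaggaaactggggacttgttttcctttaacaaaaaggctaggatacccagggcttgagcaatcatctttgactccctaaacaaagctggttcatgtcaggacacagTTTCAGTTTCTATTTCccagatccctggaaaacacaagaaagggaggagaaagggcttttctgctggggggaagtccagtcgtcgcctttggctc
Ifit3: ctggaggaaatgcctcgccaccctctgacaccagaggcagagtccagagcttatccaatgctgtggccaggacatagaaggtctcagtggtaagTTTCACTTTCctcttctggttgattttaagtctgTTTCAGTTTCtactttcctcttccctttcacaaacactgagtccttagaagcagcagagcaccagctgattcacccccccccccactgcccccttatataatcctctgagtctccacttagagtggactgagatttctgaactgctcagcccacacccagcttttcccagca

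Presentation of antigen by MHC class I was lower in 11 of 13 genes and higher in none (median -0.76). Psmb8, an immunoproteasome subunit, read 7.01, 6.38 and 6.33 in PPARα-/- livers and 8.16 to 8.82 in wild-type livers (-2.04, SE 0.19). Tapbp, which loads peptides, differed by -1.12 (SE 0.10), H2-K1, a class I heavy chain, by -0.70 (SE 0.09) and B2m, the light chain, by -0.54 (SE 0.06). B2m was tight in both groups, at 12.04, 12.08 and 12.10 in PPARα-/- livers and 12.52 to 12.69 in wild-type livers.

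Markers of the resident macrophages of the liver were lower as well. Of 17 Kupffer cell and macrophage markers, 10 were lower and 1, Gpnmb, was higher, and the summed intensity of the 17 was 2745 to 3580 in PPARα-/- livers and 4355 to 6550 in wild-type livers, with 2 markers below the array median in each knockout liver and 0 to 3 in the wild-type livers. Cd5l, a protein secreted by macrophages, read 7.57, 7.45 and 6.57 in PPARα-/- livers and 8.85 to 9.32 in wild-type livers (-1.84, SE 0.24). Clec4f, a lectin found on Kupffer cells, differed by -1.36 (SE 0.19), Csf1r, the receptor that keeps macrophages alive, by -1.22 (SE 0.13) and Timd4, a receptor for dying cells, by -1.18 (SE 0.16). In bulk tissue fewer cells of a type and less RNA per cell cannot be told apart. The part of these cells in the fall of the interferon-stimulated and MHC class I genes was not tested. Stellate cell and collagen markers were lower in 4 of 15 cases (26.7%, beside 7.15% of all genes), or 3 to 5 over the omission of single livers. The other 11 were not called, with differences of up to 0.96. The lower ones included Col3a1 (-1.54, SE 0.27), Reln (-1.46, SE 0.22) and Lrat, the retinol esterifier of stellate cells (-1.27, SE 0.22). Summed intensities of the 15, in which bright genes weigh most, were 2215 to 2646 in PPARα-/- livers and 3059 to 3398 in wild-type livers. Of sinusoidal endothelium markers the scavenger receptors Stab1 (-0.80, SE 0.09) and Stab2 (-0.68, SE 0.11) were lower and 10 of 12 were not called.

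Most markers of lymphocytes lay below the array median. Of 13 T and NK cell markers 2 were lower (15.4%, beside 7.15% of all genes), of 8 B cell markers 3 and of 9 neutrophil markers none. All 8 B cell markers lay below the array median in every knockout liver. The clearest of these, Cd79a, a chain of the B cell receptor, read 2.46, 2.36 and 2.29 in PPARα-/- livers and 3.31 to 4.35 in wild-type livers (-1.34, SE 0.26). Over the omission of single livers the counts were 0 to 4 for T and NK cells and 1 to 3 for B cells. Without wild-type replicate 1, or without PPARα-/- replicate 2 or 3, they were 0 and 1. No cholangiocyte marker of 8 was called. Among 6 erythroid markers, Alas2, the heme synthesis enzyme of red cells, read 5.66, 5.52 and 5.49 in PPARα-/- livers and 7.96 to 8.44 in wild-type livers (-2.63, SE 0.22) and Car2 differed by -0.97 (SE 0.20). The other 4 were not called, and differences over the 6 ran from -2.63 to 0.23. The summed intensity of the 6 was 219 to 262 in PPARα-/- livers and 465 to 581 in wild-type livers. This sum weights bright genes, such as Alas2 in wild-type livers, and is no measure of the 6 as a set. Of the 6 markers, 3 lay below the array median in each PPARα-/- liver and 2 or 3 in the wild-type livers. Their part in the other results was not tested.

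Proteins that hepatocytes secrete into plasma were lower in part. Of 32 complement and coagulation genes, 18 were lower and none higher (median -0.70). F11, coagulation factor XI, read 8.19, 7.87 and 7.51 in PPARα-/- livers and 9.50 to 9.89 in wild-type livers (-1.78, SE 0.16), Mbl1, a mannose-binding lectin, differed by -2.33 (SE 0.24), Cfb, complement factor B, by -1.63 (SE 0.12) and Serpinf2, an inhibitor of plasmin, by -0.76 (SE 0.08). Of 24 acute phase genes 10 were lower and none higher. Saa4, the constitutive serum amyloid, read 9.39, 9.69 and 9.28 in PPARα-/- livers and 12.05 to 12.47 in wild-type livers (-2.81, SE 0.29), Fgg, the fibrinogen γ chain, differed by -0.93 (SE 0.09), Serpina3n by -0.85 (SE 0.11) and Hp, haptoglobin, by -0.68 (SE 0.10). Without wild-type replicate 3, 1 acute phase gene was called higher. Of 16 hepatocyte identity factors and products 7 were lower, by modest amounts for the factors: Hnf4a, a regulator of hepatocyte genes, differed by -0.46 (SE 0.07) and Nr5a2 by -0.63 (SE 0.12), while Ttr, transthyretin, differed by -0.77 (SE 0.07) and Alb, albumin, by -0.37 (SE 0.05). The tissue label was borne out by Alb, at 12.90, 13.05 and 13.02 in PPARα-/- livers and 13.30 to 13.41 in wild-type livers, near the top of the scale.

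The steepest increase called in PPARα-/- livers was in Sult1e1, estrogen sulfotransferase, which read 7.02, 7.03 and 8.26 in PPARα-/- livers, against 2.96, 2.98, 3.16 and 3.03 in wild-type livers (4.41, SE 0.61, adjusted p = 4.2e-06). Nupr1, a stress-induced chromatin protein, read 10.62, 10.17 and 10.37 in PPARα-/- livers and 8.26, 6.61, 5.50 and 5.12 in wild-type livers (4.01, SE 0.66, adjusted p = 5.5e-05). The wild-type livers were spread over more than 3 log2 units in Nupr1, with replicate 1 the highest, and were tight in Sult1e1. They lay below the array median there, where intensities carry little order, so the size of the difference in Sult1e1 is approximate. Wnt4, a secreted signalling ligand, read 8.34, 6.99 and 8.53 in PPARα-/- livers and 4.05 to 4.43 in wild-type livers (3.74, SE 0.31). Gpx3, the secreted glutathione peroxidase, read 9.91, 9.48 and 9.98 in PPARα-/- livers and 6.11 to 6.67 in wild-type livers (3.34, SE 0.27). The 15 largest increases, like the decreases, were picked among genes with no overlap between groups. Cyp2b10, a P450 induced through the receptor CAR, read 10.15, 11.28 and 11.80 in PPARα-/- livers, against 7.66, 6.47, 8.78 and 8.11 in wild-type livers (3.32, SE 0.68, adjusted p = 0.00069), Treh, trehalase, differed by 3.08 (SE 0.27), Pmm1, a phosphomannomutase, by 3.26 (SE 0.31), Gm6614 by 3.54 (SE 0.26), Mtmr11 by 3.03 (SE 0.32), Coro6, a coronin, by 2.88 (SE 0.34) and Gpnmb, a lysosomal glycoprotein of lipid-laden macrophages, by 3.33 (SE 0.50). Gpnmb was not called when only the 7 arrays were fitted, nor Cyp2b10 when only the 15 ketogenic arrays were. Myc, the growth-promoting transcription factor, read 9.74, 9.76 and 10.27 in PPARα-/- livers and 8.01, 7.17, 5.58 and 7.46 in wild-type livers (2.86, SE 0.51, adjusted p = 0.00014).

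Genes of the integrated stress response, the program that ATF4 turns on when translation is curbed, were higher in 12 of 23 cases and lower in 2 (median 1.04). The count of higher genes was 8 without PPARα-/- replicate 2 or 3 and 14 without wild-type replicate 1. Slc7a11, the cystine importer, read 6.84, 7.67 and 6.95 in PPARα-/- livers, against 4.79, 3.22, 2.64 and 2.61 in wild-type livers (3.84, SE 0.52, adjusted p = 2.9e-06). Slc3a2, the partner chain of amino acid transporters, differed by 1.65 (SE 0.17), Slc7a1, a transporter of cationic amino acids, by 1.52 (SE 0.22) and Eif4ebp1, a brake on translation, by 1.04 (SE 0.16). The members called lower were Fgf21 and Shmt2, the mitochondrial serine hydroxymethyltransferase (-0.57), which was named after its value was seen, and 1 was lower without PPARα-/- replicate 1. The mean level of the 23 genes was 7.35 to 7.67 in PPARα-/- livers and 6.00 to 7.04 in wild-type livers, where replicate 1 was the highest.

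Promoters of the 3 steepest members with a match to TGATGNAAN, the letters of the C/EBP-ATF element through which ATF4 is known to act, are shown because these genes rose together. The motif was chosen after the values had been seen. The list holds genes known for the program that ATF4 turns on, so its share of matches is no independent test. A match on either strand was present in 5 of the 10 higher members with a window, in 2 of 8 members not called, in 35 of 981 genes higher in PPARα-/- livers (3.57%), in 39 of 1071 genes lower (3.64%) and in 1215 of 27025 genes in all (4.5%). Asns, asparagine synthetase, read 9.75, 9.86 and 9.97 in PPARα-/- livers and 8.04, 7.10, 6.11 and 6.85 in wild-type livers (2.84, SE 0.62). The windows lie on the minus strand of GRCm38.p6, at chr7:126625421-126625720 for Nupr1, chr3:50443564-50443863 for Slc7a11, which has a match on each strand from -66 to -58 and from -48 to -40, and chr6:7693160-7693459 for Asns. They are printed along the gene with matches in capitals.
Nupr1: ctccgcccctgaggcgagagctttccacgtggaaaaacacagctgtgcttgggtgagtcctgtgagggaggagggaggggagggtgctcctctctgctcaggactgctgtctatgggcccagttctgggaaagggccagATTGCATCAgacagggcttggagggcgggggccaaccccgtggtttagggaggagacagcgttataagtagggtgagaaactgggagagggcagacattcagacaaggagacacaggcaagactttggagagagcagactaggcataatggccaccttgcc
Slc7a11: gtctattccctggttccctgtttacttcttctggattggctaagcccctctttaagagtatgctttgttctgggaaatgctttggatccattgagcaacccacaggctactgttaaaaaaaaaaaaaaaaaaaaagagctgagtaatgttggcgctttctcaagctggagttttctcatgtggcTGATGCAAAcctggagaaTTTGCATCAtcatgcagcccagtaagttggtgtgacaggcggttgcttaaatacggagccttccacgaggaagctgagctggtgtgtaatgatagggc
Asns: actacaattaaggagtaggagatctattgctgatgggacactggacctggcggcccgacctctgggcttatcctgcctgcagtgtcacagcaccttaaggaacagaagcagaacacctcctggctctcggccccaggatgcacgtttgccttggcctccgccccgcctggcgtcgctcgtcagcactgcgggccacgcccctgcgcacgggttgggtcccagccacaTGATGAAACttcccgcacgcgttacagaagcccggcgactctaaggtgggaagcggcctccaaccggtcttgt

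NRF2 antioxidant genes were higher in 8 of 19 cases and lower in 1, Mgst1, a microsomal glutathione transferase (-0.50, SE 0.08), named after its value was seen (median 0.45). Nqo1, a quinone reductase, read 8.86, 7.97 and 8.27 in PPARα-/- livers and 5.58 to 6.52 in wild-type livers (2.29, SE 0.20, adjusted p = 2.7e-09), and Pgd, of the pentose phosphate pathway, differed by 1.68 (SE 0.17). The glutathione transferases Gstm3 and Gstm2 differed by 3.33 (SE 0.47) and 1.93 (SE 0.21), and members of this cluster are near-identical in sequence. The probe set of Gstm3 with the highest mean, used for the list, differed by 2.69. Of 20 p53 target genes 7 were higher and 1 lower (median 0.70), and 10 were higher without wild-type replicate 1. Cdkn1a, the cell cycle inhibitor p21, read 9.77, 9.87 and 10.06 in PPARα-/- livers, against 8.35, 7.59, 6.70 and 6.61 in wild-type livers (2.59, SE 0.46). Eda2r, a receptor of the tumour necrosis factor family, differed by 1.68 (SE 0.26) and Aen, an apoptosis-linked nuclease, by 1.03 (SE 0.16), while Fas, a death receptor, was the member that was lower (-1.14, SE 0.14). Chaperones of the unfolded protein response were higher in 6 of 26 cases, or 3 without PPARα-/- replicate 3, with Sdf2l1 at 1.52 (SE 0.30), Hspa5, the main ER chaperone, at 0.55 (SE 0.10) and Dnajc3, its co-chaperone, at 0.47 (SE 0.09). Other increases were in Ctsl, a lysosomal protease (1.39, SE 0.16), Jun (1.02, SE 0.19) and the glucose transporter Slc2a1 (1.11, SE 0.19).

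**Figure D4:**
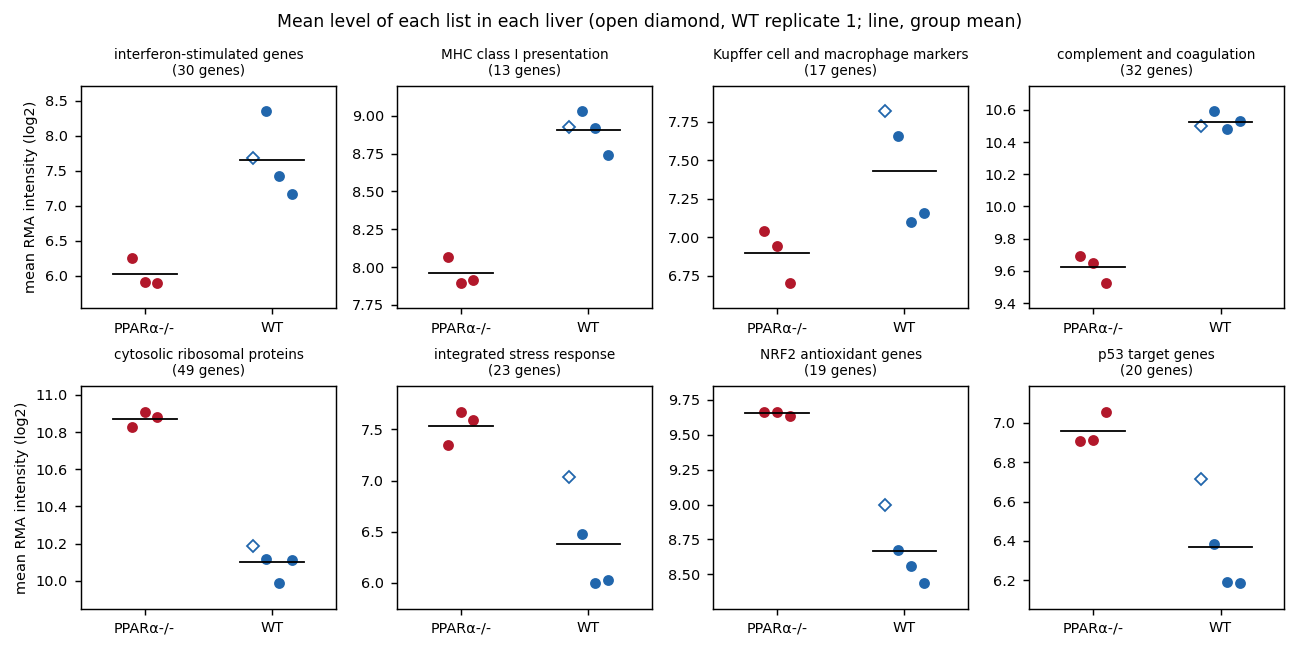
Mean RMA intensity (log2) over the measured members of 8 lists in each liver, with PPARα-/- livers in red and wild-type livers in blue, the group mean as a line and wild-type replicate 1 as an open diamond. No list overlaps between groups. Interferon-stimulated, MHC class I, macrophage and complement genes are lower in PPARα-/- livers, and in the integrated stress response, NRF2 and p53 panels replicate 1 is the wild-type liver nearest to them.

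Cytosolic ribosomal protein genes, which encode the subunits of the translation machinery, were higher almost without exception. Of 49 measured, 47 were higher and none lower, with a median of 0.78. Rpl35 read 11.40, 11.44 and 11.38 in PPARα-/- livers, against 10.52, 10.33, 10.24 and 10.26 in wild-type livers (1.07, SE 0.07, adjusted p = 1.5e-11). Rps13 differed by 1.27 (SE 0.08), Rps9 by 1.12 (SE 0.07) and Rplp1 by 0.83 (SE 0.06). Spread within groups was under 0.3 log2 units in Rpl35, so the groups stood well apart. Ribosomal protein genes have many processed pseudogenes, and probes may not tell these from the parent gene. Mrpl23, of the mitochondrial ribosome, was picked because its difference on the diet was unlike that after a fast. It read 8.80, 8.90 and 8.92 in PPARα-/- livers and 7.35 to 7.56 in wild-type livers (1.43, SE 0.09). Mitochondrial ribosomal genes were not examined as a list. Subunits of the respiratory chain and ATP synthase stayed near the background share, with 6 of 68 lower and 3 higher (median -0.06). Ndufa9 differed by -0.41 (SE 0.07), Atp5a1 by -0.35 (SE 0.06), Ndufa3 by -0.34 (SE 0.06) and Ndufc2 by 0.42 (SE 0.07), and 1 was higher without PPARα-/- replicate 3 or wild-type replicate 2. Ndufa9 was not called when only the 7 arrays were fitted.

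The TCA cycle held 8 lower and 2 higher genes of 20. Suclg1, a succinyl-CoA ligase subunit, read 9.01, 9.19 and 9.21 in PPARα-/- livers and 9.97 to 10.19 in wild-type livers (-0.94, SE 0.09), Sucla2 differed by -0.73 (SE 0.08) and Mdh2, the mitochondrial malate dehydrogenase, by 0.70 (SE 0.06). Breakdown of branched-chain amino acids was lower in 8 of 19 cases, or 4 without PPARα-/- replicate 1, with Acad8, of valine breakdown, at -0.85 (SE 0.09), Ivd, isovaleryl-CoA dehydrogenase, at -0.70 (SE 0.13) and Hibadh, of valine breakdown, at -0.68 (SE 0.08), although a dimmer probe set of Hibadh differed by 0.29. Glul, glutamine synthetase, which in liver is confined to hepatocytes around the central vein, read 9.94, 9.17 and 9.58 in PPARα-/- livers, against 11.71, 11.84, 12.11 and 12.11 in wild-type livers (-2.38, SE 0.17, adjusted p = 4.9e-11). In the urea cycle and ammonia list 6 of 12 genes were lower and 1, Asns, was higher, with Otc, ornithine transcarbamylase, at -1.37 (SE 0.24), Slc25a13, the aspartate-glutamate carrier, at -0.85 (SE 0.12) and Glud1, glutamate dehydrogenase, at -0.81 (SE 0.10). Of 25 other genes of amino acid breakdown, 9 were lower, 3 higher and 13 not called, and only 1 was higher without PPARα-/- replicate 1 or 3. Prodh2, of hydroxyproline breakdown (-2.42, SE 0.33), Uroc1, of histidine breakdown (-1.27, SE 0.19) and Qprt, of NAD synthesis from tryptophan (-0.97, SE 0.13), were lower. The steepest increase was in Acmsd, which draws tryptophan breakdown away from NAD, at 8.09, 8.75 and 9.36 in PPARα-/- livers and 5.93 to 6.85 in wild-type livers (2.23, SE 0.35), and Gldc (0.79) and Cth (0.70) were also higher. These 3 were named after their values were seen.

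Genes that differ between male and female livers were tested because growth hormone sets both groups. Of 21 genes biased to male liver 10 were lower and none higher (median -1.34). Hsd3b5, a steroid dehydrogenase of male liver, read 2.07, 2.45 and 2.66 in PPARα-/- livers, against 7.15, 7.15, 5.43 and 5.70 in wild-type livers (-3.96, SE 0.52), Cyp4a12a differed by -3.25 (SE 0.38), Cyp4a12b by -3.11 (SE 0.39) and Cyp2f2 by -2.38 (SE 0.19). Genes biased to female liver held 3 lower and 1 higher of 17. These were Vnn1, Cyp4a14 and Abcd2, which are lower here and act in lipid metabolism, and Sult1e1, which is higher. Without PPARα-/- replicate 2 or wild-type replicate 4, 2 were higher. Of the 16 genes of the growth hormone and IGF1 axis, 5 were lower, or 3 without PPARα-/- replicate 2, 1 was higher and 10 were not called (median -0.29). Ghr, the receptor, differed by -1.10 (SE 0.13), Igfals, which stabilises IGF1 in plasma, by -1.90 (SE 0.25), Igfbp2 by -2.03 (SE 0.33) and Igfbp1 by 2.13 (SE 0.42). Igfbp1 read 12.01, 11.86 and 12.33 in PPARα-/- livers and 11.37, 10.75, 8.90 and 8.72 in wild-type livers, and was not called when only the 7 arrays were fitted. Of 31 drug-metabolizing P450 genes 3 were lower (9.68%) and 2 higher (6.45%), near the 7.15% and 6.45% of all genes. Their median was -0.55, with summed intensities of 45070 to 48150 in PPARα-/- livers and 58750 to 68610 in wild-type livers. The steepest difference among them was that of Cyp2b9, named after its value was seen, at 5.32, 3.94 and 4.45 in PPARα-/- livers and 8.02, 6.72, 11.14 and 7.16 in wild-type livers (-3.69, SE 1.11, adjusted p = 0.020, not called). Cyp2c23, an arachidonic acid epoxygenase, differed by -2.20 (SE 0.33) and Cyp2j5 by -2.09 (SE 0.26). Carboxylesterases were lower in 6 of 14 cases and higher in none, and besides Ces3a, Ces3b differed by -3.55 (SE 0.34), Ces2e by -1.37 (SE 0.18) and Ces2a by -1.16 (SE 0.20), which was not called when only the 7 arrays were fitted.

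Of 30 DNA replication and G1/S genes 5 were lower (16.7%) and none higher, with a median of -0.23. Ccnd1, cyclin D1, read 7.07, 6.62 and 6.40 in PPARα-/- livers, against 9.04, 9.71, 8.56 and 8.36 in wild-type livers (-2.22, SE 0.30, adjusted p = 2.9e-06). E2f8, a repressor of the cell cycle that is known for polyploid hepatocytes, differed by -2.64 (SE 0.38), Tk1, thymidine kinase, by -1.72 (SE 0.33) and Mcm10, of replication origins, by -1.46 (SE 0.23). Of 33 mitosis genes 2 were lower (6.06%, beside 7.15% of all genes) and none higher, with a median of -0.49. Over the omission of single livers the count was 0 to 6. It was 0 without wild-type replicate 1 or 2 or any 1 knockout liver, 4 without wild-type replicate 3 and 6 without replicate 4. The mean level of the 33 genes overlapped between groups. It was 3.52, 3.47 and 3.38 in PPARα-/- livers and 4.20, 4.42, 3.68 and 3.46 in wild-type livers. Most of these genes were dim. In the circadian clock list 2 of 16 genes were higher, Arntl, a core activator, at 5.87, 7.31 and 6.31 in PPARα-/- livers and 4.51 to 4.99 in wild-type livers (1.73, SE 0.34), and Cry1, a core repressor (1.53, SE 0.28), and none was lower, or 1 without PPARα-/- replicate 1 or wild-type replicate 1. Nuclear receptors were lower in 9 of 31 cases, or 6 without PPARα-/- replicate 3, and higher in none, or 1 without wild-type replicate 4, with Rxra, the partner of PPARα, at -0.70 (SE 0.09) and Nr3c1, the glucocorticoid receptor, at -0.39 (SE 0.07), the last not called when only the 7 arrays were fitted.

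The effect of PPARα loss was then set against that after a 16 h fast, which used 3 PPARα-/- and 4 wild-type livers that are not among the 7 above. After the fast 586 genes were higher (3.11%) and 486 lower (2.58%). The interaction, the ketogenic difference minus the fasted difference, was called in 925 of 18820 genes (4.91%), with 394 positive (2.09%) and 531 negative (2.82%). Over all probe sets it was called in 4.83%, 2.83% positive and 2% negative. Of the genes lower on the ketogenic diet, 293 were also called lower after the fast and 1052 were not. Of those higher, 223 were also called higher and 990 were not, and 16 genes had opposite calls. The interaction was called in 416 of the genes lower and 311 of the genes higher on the ketogenic diet. For the other genes called on the ketogenic diet the difference between regimens did not pass the test.

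Mitochondrial fatty acid oxidation genes were lower on both regimens. After the fast 16 of 18 were lower (median -1.11), and the interaction was called for 4 of the 18, Cpt1a, Acadl, Etfa and Acot2, of which all but Cpt1a were named after their values were seen. Of the peroxisomal genes 12 of 22 were lower after the fast (median -0.87), with 3 interactions called, for Acaa1b (-2.19), Abcd2 (-5.50) and Amacr (-0.87), and of the omega-oxidation genes 3 of 8 (median -0.97), with 2 called, for Cyp4a12a (-2.36) and Cyp4a12b (-2.06). Fabp1 differed by -4.94 on the ketogenic diet and -2.63 after the fast (interaction -2.30, adjusted p = 0.012). Vnn1 differed by -6.92 on the ketogenic diet and -5.95 after the fast (interaction -0.97, adjusted p = 0.33), Serinc2 by -4.89 and -4.96, Mfsd2a by -4.53 and -5.16, and Ehhadh by -2.82 and -2.62. Sult1e1 was higher by 4.41 and 4.59. Retsat differed by -3.44 and -3.19 and Chrna2 by -3.41 and -3.05. For the last 7 genes the interaction was not called.

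Other groups differed between regimens. Abcd2 was lower by 4.90 on the ketogenic diet and read 0.60 higher after the fast without a call (interaction -5.50, SE 0.44, adjusted p = 2e-08). Ces3a differed by -5.09 on the ketogenic diet and -0.16 after the fast (interaction -4.93, SE 0.69, adjusted p = 2.8e-05). Glul differed by -2.38 and 0.02 (interaction -2.40, SE 0.24, adjusted p = 3.2e-07). Among interferon-stimulated genes 2 of 30 were higher after the fast and none lower (median 0.56), and the interaction was called in 26. Ifitm3, an inhibitor of viral entry, differed by -1.27 on the ketogenic diet and 0.36 after the fast (interaction -1.63, SE 0.11, adjusted p = 3.2e-09), and Ifitm2, its near-identical neighbour, by -0.90 and 0.30. No MHC class I gene was called after the fast, and the interaction was called in 8 of 13. Of the macrophage markers none was called after the fast, and the interaction was called in 6 of 17.

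Ribosomal protein genes were higher in 2 of 49 cases after the fast (median 0.12), with the interaction called in 42. Rpl13 differed by 1.15 and 0.09 (interaction 1.06, SE 0.09, adjusted p = 6.7e-08) and Mrpl23 by 1.43 and 0.08. Fn1, fibronectin, differed by -1.11 and 0.13 (interaction -1.24, SE 0.12, adjusted p = 2.8e-07). Acute phase genes were higher in 7 of 24 cases after the fast, and the interaction was called in 13. Wnt4 differed by 3.74 and -0.23 (interaction 3.97, SE 0.44, adjusted p = 1.4e-06). Nupr1 differed by 4.01 and 0.70, but the interaction was not called (3.31, adjusted p = 0.028). The unfolded protein response went the other way in number, with 12 of 26 genes higher after the fast, and its interaction was called in none.

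**Figure D5:**
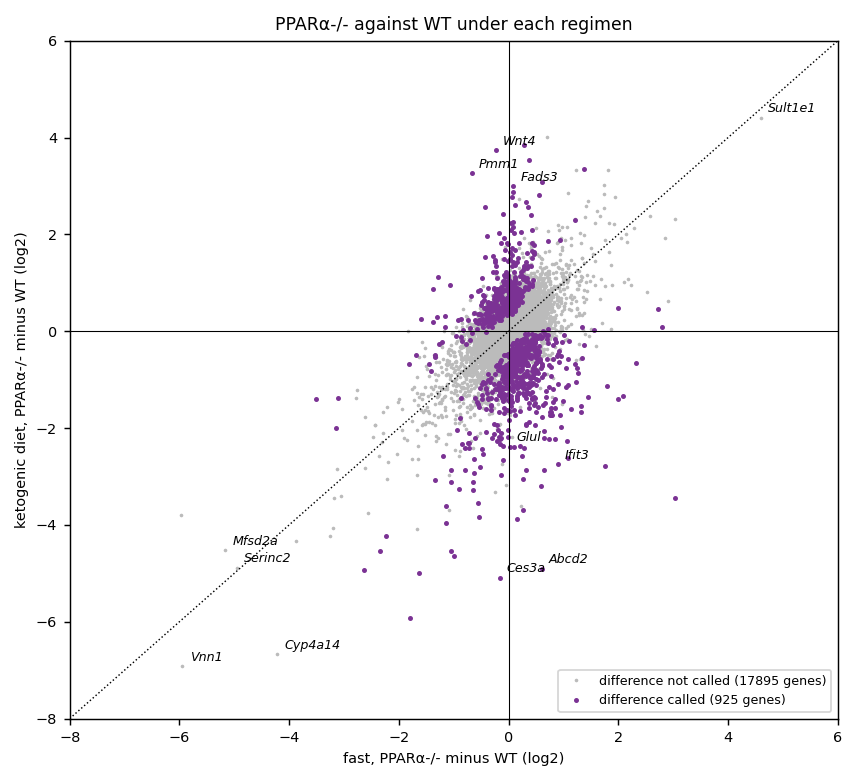
Difference between PPARα-/- and wild-type livers (log2) on the ketogenic diet (vertical axis) and after the fast (horizontal axis) for 18820 genes. The 925 genes with a called interaction are in purple and the dotted line marks equal differences. Vnn1, Serinc2, Mfsd2a and Sult1e1 lie near that line, and Ces3a (-0.16), Wnt4 (-0.23) and Glul (0.02) lie near 0 on the horizontal axis.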

How the data were processed

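RNA of whole mouse livers was hybridised by the authors to Mouse Gene 1.1 ST arrays, one per mouse, and the deposited values are on a log2 scale after robust multi-array averaging (RMA), as named in the submitters' processing notes. RMA subtracts background, equalises the distributions of the arrays and summarises probes, so small differences are compressed and low values near the background carry little order. The deposited table, which holds 30 arrays, was used as given, with 0 per-sample columns left unused. Probe sets were named from the platform annotation. Of 35556, 21218 had 1 symbol, 1881 several and 12457 none, and the last 2 kinds were tested but not named.

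A linear model with 1 mean per group of 8 groups was fitted to all 30 arrays with limma 3.58.1 in R 4.3.3 (lmFit, then eBayes with an intensity trend; 22 residual and 3.47 prior degrees of freedom). Contrasts were PPARα-/- minus wild type on the ketogenic diet, the same after the fast, and their difference. Calls required P under 0.001 and a fold beyond 1.2, and p-values were adjusted over all probe sets. The data.table package (1.17.8), Python 3.11.15, pandas 2.3.3 and matplotlib 3.10.9 were also used. The code was tested on simulated data.

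Named genes were the 15 largest increases and 15 largest decreases with no overlap between groups, up to 4 called members of lowest P from each of 54 lists (46 pathways, 8 cell types), a set of anchor genes and up to 8 genes of lowest interaction P. The groups of genes, the lists and the comparison were chosen with earlier results of these data known, and a few genes named after their values were seen are marked. List members without a probe set of 1 symbol are not analysed here. The alternatives tried were other sets of arrays, the omission of each liver, the replicate number as a block, other variance models, array weights, centring, normalization, intensity filters, thresholds and other probe sets of a gene. Promoter windows were those of RefSeq on GRCm38.p6.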

Additional observations from a re-analysis of the deposited data

Results flagged for a closer look

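In 15 of 218 named probe sets, 1 of the 4 wild-type livers on the ketogenic diet stood apart from the other 3 by Dixon's criterion. Chance meets it in about 1 of 20 groups. Wild-type replicate 1 was the liver in 6 of them. It read 6.82 in Gpnmb (PPARα-/- livers 7.27 to 8.11, other wild-type livers 3.37 to 3.91), 6.17 in Pmm1 (PPARα-/- 8.36 to 8.68, other wild type 4.80 to 4.98), 5.80 in Mtmr11 (PPARα-/- 7.27 to 7.82, other wild type 4.00 to 4.21) and 11.27 in Ctsl (PPARα-/- 12.22 to 12.43, other wild type 10.78 to 10.81), in each case on the side of the knockout livers, and 12.58 in Hp and 3.86 in Afp. Replicate 2 read 11.11 in Vnn1, 11.73 in Cyp2c23, 8.22 in Acaca and 12.24 in Aldh3a2. Replicate 3 read 6.04 in E2f8, below 7.15 to 7.32 in the other wild-type livers, and 9.49 in Srebf1, above 8.13 to 8.22. Replicate 4 read 10.99 in Ces3b, 10.54 in Fabp2 and 11.29 in Cyp7a1, where the others read 8.50 to 8.95.

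The difference between PPARα-/- and wild-type livers itself differed between the ketogenic diet and the fast in 107 of 218 named probe sets at P under 0.001. In 56 the adjusted p of that interaction was also under 0.001. Over all probe sets the interaction was called in 4.83%. Named probe sets were picked for their ketogenic difference, and some for a low interaction P. Their share is therefore no measure of how common such an interaction is. Values are the ketogenic difference minus the fasted difference on the log2 scale. It was positive for Wnt4 (3.97), Pmm1 (3.94), Gm6614 (3.17), Fads3 (2.91), Coro6 (2.80), Treh (2.48), Abcc4 (2.22) and Abcc3 (0.83). It was also positive for the ribosomal protein genes Rpl13 (1.06), Rps13 (1.0), Rpl35 (0.95), Rps9 (0.85) and Rplp1 (0.93 and 0.74 on a pair of probe sets), and for the mitochondrial Mrpl23 (1.36), Mdh2 (0.82) and Ndufc2 (0.58).

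It was negative for the lipid and metabolic genes Abcd2 (-5.50), Ces3a (-4.93), Dio1 (-3.66), Ces3b (-3.00), Glul (-2.40), Cyp2f2 (-2.27), Acaa1b (-2.19), Fads2 (-2.09), Alas2 (-2.00), Elovl5 (-1.73), Qprt (-1.17), Amacr (-0.87), Scarb1 (-0.84) and Apob (-0.62). Among immune genes it was -3.64 for Ifit3, -3.51 for Gbp3, -2.57 for Iigp1, -2.02 for Psmb8, -1.85 for Bst2, -1.85 for Cd5l, -1.63 for Ifitm3, -1.32 for Tapbp, -1.20 for Ifitm2, -1.09 for Csf1r, -0.66 for H2-K1 and -0.54 for B2m. Among plasma proteins it was -2.38 for F11, -2.29 for Saa4, -1.60 for Cfb, -1.34 for Serpina3n, -1.24 for Fn1, -1.20 for Fgg, -0.92 for Hp, -0.80 for Serpinf2, -0.75 for Ttr and -0.42 for Alb. The remaining values were -1.04 for Ulk1, -0.82 for Slc39a14 and -0.65 for Hnf4a.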

How the results depend on the processing

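Of the 3883 probe sets called (2174 higher and 1709 lower), the omission of single livers left 1696 to 2078 higher and 1269 to 1613 lower, and 1401 to 1661 called interactions beside 1718. The fewest calls, 2965, were found without PPARα-/- replicate 3. With only the 7 arrays compared, 2962 were called, 2689 of them shared in the same direction, and with only the 15 ketogenic arrays 3050, of which 2940 were shared. Array weights gave 4514 calls. An adjusted p under 0.05 with no fold criterion gave 3263 probe sets higher, and a fold beyond 2 gave 471 higher, 666 lower and 617 interactions. The replicate numbers did not pair the livers (correlations of deviations 0.04, 0.03 and -0.05), and with the replicate block 3664 were called, 3566 of them shared. Direction was kept in every named probe set under every setting tried, except that another probe set of Top2a (0.20) and of Hibadh (0.29) gave the opposite sign. The call was lost without at least 1 liver in 19 of 218 named probe sets, 8 of them without wild-type replicate 1, and 27 were not called under at least 1 of the other settings. It was lost in 18 with only the 7 arrays compared (Gpnmb, Cd79b, Ms4a1, Cd4, Cd3e, Ces2a, Ebp, Fasn, Lgr5, Igfbp1, Vcam1, Hjv, Fgf21, Angptl4, Kif23, Top2a, Nr3c1 and Ndufa9), in 17 with only the 15 ketogenic arrays (Cyp2b10, Cd4, Cd3e, Lipa, Ebp, Afp, Lgr5, Pcx, Vcam1, Il6ra, Hjv, Slc16a6, Kif23, Top2a, Pex16, Lum and Plin5) and in 8 with the replicate block. With 3 knockout livers the precision is limited, and dim genes such as those of mitosis and of lymphocytes lie where the arrays resolve little. Genes with near-identical copies may share probes.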

Other observations

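Several lists outside lipid, immune and stress biology had members that passed the test. Among 21 genes of glycolysis and pyruvate fate 5 were lower and 2 higher. Ldha, lactate dehydrogenase, read 11.56, 11.72 and 11.27 in PPARα-/- livers and 12.50 to 12.77 in wild-type livers (-1.08, SE 0.10), and Pdp2, the phosphatase that reactivates pyruvate dehydrogenase, differed by -1.77 (SE 0.26), while Pgk1, phosphoglycerate kinase, was higher by 0.68 (SE 0.10). Among conjugating enzymes 6 of 32 were lower (18.8%) and 4 higher (12.5%), beside 7.15% and 6.45% of all genes. Without PPARα-/- replicate 2, 4 were lower and 3 higher. Ugt3a1, a sugar transferase, read 6.45, 6.13 and 6.58 in PPARα-/- livers, against 10.29, 10.46, 10.57 and 10.56 in wild-type livers (-4.08, SE 0.47). Of 17 iron genes 2 were higher (11.8%, beside 6.45% of all genes) and 3 lower (17.6%, beside 7.15%). Over the omission of single livers 1 to 4 were higher and 2 to 4 lower. The count of higher genes was 1 without PPARα-/- replicate 1 or 2 or wild-type replicate 1 or 2, and 4 without wild-type replicate 4. Bmp6, the ligand that raises hepcidin, differed by 1.06 (SE 0.15) and Hjv, its co-receptor, by 0.67 (SE 0.16), a call lost without any 1 of those first 4 livers (0.54 to 0.79 over the omissions) and with only the 7 or the 15 ketogenic arrays. Tfr2, a sensor of iron-loaded transferrin, differed by -0.72 (SE 0.12), Slc39a14, an importer of free iron, by -0.65 (SE 0.11) and Tmprss6, which restrains hepcidin and was named after its value was seen, by -0.55 (SE 0.14).

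Of 19 liver-secreted hormones 7 were lower and none higher, or 4 without PPARα-/- replicate 2. Besides Fgf21, Inhbc, an activin subunit, read 7.55, 8.16 and 7.47 in PPARα-/- livers and 8.83 to 9.42 in wild-type livers (-1.43, SE 0.26). Enho differed by -1.11 (SE 0.24), a call lost without PPARα-/- replicate 3, with values no weaker than -1.0 over the omissions. Afp, the fetal serum protein, read 5.38, 5.96 and 5.22 in PPARα-/- livers, against 3.86, 3.70, 3.70 and 3.72 in wild-type livers (1.78, SE 0.38), a call lost without PPARα-/- replicate 2 (1.56) and with only the 15 ketogenic arrays. Of 21 autophagy and lysosome genes 4 were lower, or 2 to 4 over the omission of single livers. Of the rest, 1 was higher, Ctsl (1.39), and 16 were not called (median of the 21, -0.09). Lamp2 and Ulk1, among the lower genes, differed by -0.35 (SE 0.06) and -1.07 (SE 0.14).

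In several genes of the fasting and stress response the wild-type livers fell into pairs, with replicates 1 and 2 above 3 and 4, an order noticed in the data and not tested. Igfbp1 read 11.37 and 10.75 in wild-type replicates 1 and 2, against 8.90 and 8.72 in replicates 3 and 4. The same order held in Pdk4 (7.87 and 7.86, against 5.94 and 5.70), Fgf21 (8.74 and 8.24, against 6.91 and 6.16), Cdkn1a (8.35 and 7.59, against 6.70 and 6.61), Cidec (9.75 and 9.55, against 8.35 and 8.25) and Nupr1 (8.26 and 6.61, against 5.50 and 5.12). The PPARα-/- livers stood above all 4 wild-type livers in Igfbp1, Pdk4, Cdkn1a and Nupr1. The order was not particular to fasting and stress genes. Mean levels of mitosis genes had it too (4.20 and 4.42, against 3.68 and 3.46), as had those of macrophage markers (7.82 and 7.66, against 7.10 and 7.16). Cholesterol synthesis genes had the reverse order (8.23 and 8.24, against 8.89 and 9.35).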
